A study of Arabidopsis halleri and Arabidopsis lyrata subsp. petraea with 24 samples.

Results

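Ascorbate peroxidases, a glutathione reductase and the copper chaperone of superoxide dismutase were followed over 24 ATH1 arrays of roots and leaves from 2 Arabidopsis species grown with and without extra zinc. The genes were SAPX, the stromal ascorbate peroxidase (probe set 255142_at), TAPX, the thylakoid ascorbate peroxidase (259707_at), GR1, a cytosolic glutathione reductase (257252_at), and CCS, the copper chaperone for superoxide dismutase (259511_at). They were taken by their symbols in the platform annotation, 4 of the 13350 genes named there. Each had 1 probe set, and all 4 passed the filter that left out the dimmest 25% of probe sets.

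Ascorbate peroxidases use ascorbate to reduce hydrogen peroxide to water, and in plastids this removes peroxide made beside the photosystems. Glutathione reductase keeps glutathione in its reduced form, which feeds the regeneration of ascorbate. CCS delivers copper to copper/zinc superoxide dismutases, the enzymes that turn superoxide into hydrogen peroxide, and excess metal is a known source of oxidative stress in plants.

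The labels name Arabidopsis halleri, a relative of A. thaliana known for zinc tolerance and for storing zinc in leaves, and Arabidopsis lyrata subsp. petraea, called A. petraea below. The 8 groups were high zinc roots, control roots, high zinc leaves and control leaves of each species, with 3 arrays each. High zinc plants received 25 µM zinc, and control plants grew on the full mineral medium that all groups shared. No label gives the zinc content of that medium, the origin of the plants or how many plants stand behind a group's arrays. A p-value here therefore covers the spread among arrays, which may be technical.

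Arrays were grouped in 2 ways. The first takes each array's group as its title prints it. The second, called text order, sorts the serial numbers in the titles as text, where 10 comes before 2, and gives the array at each place in that sorted list the group and replicate number printed for the serial equal to its place. No label states this order. It was inferred with results of these data known, and its match to organ markers is therefore no independent support for it. The leaf markers RCA, PSAE-1, PRK and SBPASE and the root markers PYK10, EXPA7 and EXPA18 were averaged on each array. The higher of both averages matched the printed organ on 9 of 24 arrays and the text-order organ on 23 of 24. The exception in text order was A. petraea high zinc root array 2, printed as A. petraea high zinc leaf array 3. On it the leaf markers lay above the root markers by 3.43 on the log2 scale. Its root marker mean of 7.20 was still the highest of the 13 arrays with leaf markers above root markers. A. petraea control leaf array 2 came next at 7.05, and A. halleri high zinc root array 3 had only 6.24. Whether an array held both organs was not tested. The markers bear on organ and not on species or zinc. The other array with the highest correlation belonged to the same group for only 1 of 24 arrays in either grouping. Results that rest on A. petraea high zinc root array 2, the opposed array, include it, and where stated are also given without it. Changes are on the log2(signal + 16) scale with the standard error (SE) from limma, and a gene was called at a Benjamini-Hochberg adjusted p under 0.05 over the 17107 probe sets tested. In bulk tissue, fewer cells of a type and less RNA per cell cannot be told apart.

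TAPX was the member with the clearest pattern in text order. Its signal was higher in leaves than in roots in both species, and A. petraea leaves held the highest values. In roots of A. petraea it was 11.1, 301.2 and 19.8 under high zinc and 30.7, 33.7 and 45.4 in controls. Leaves of A. petraea had 479.3, 388.7 and 466.2 under high zinc and 1005.1, 331.2 and 482.6 in controls. All 6 root arrays lay below all 6 leaf arrays, and the value of 301.2 came from the array whose markers opposed its organ.

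Roots minus leaves came to -3.10 ± 0.47 for TAPX in A. petraea, an 8.55-fold lower level on the log2(signal + 16) scale (limma, adjusted p = 9.6e-05). With same-numbered high zinc and control arrays averaged before the fit, it was called at a larger adjusted p of 0.00155 (limma). Without the opposed array the difference was -3.65 (limma, adjusted p = 1.05e-07). That array held the highest A. petraea root value, so leaving it out could only widen the difference. Of all probe sets tested, 21.5% were called in this comparison and 3.82% had groups that did not overlap. A call in this comparison was therefore common. An absence of overlap was less common, in a root group that held the opposed array, whose part in that share was not tested. In the organ comparison of A. halleri, 21% of probe sets had groups that did not overlap.

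In A. halleri, root arrays had TAPX signals of 80.3, 21.3 and 50 under high zinc and 38.1, 70.2 and 14.8 in controls. Leaf arrays had 161.9, 85.0 and 158.3 under high zinc and 213.2, 67.8 and 223.8 in controls. Roots were again lower, but both organs overlapped, because the leaf arrays of number 2, at 85.0 and 67.8, stood beside the highest root array, at 80.3. Roots minus leaves was -1.45 ± 0.47 (limma, adjusted p = 0.0194), where 38% of probe sets were called. With same-numbered arrays averaged the adjusted p was 0.0399 (limma). The call was lost without A. halleri control root array 3 (-1.26, limma adjusted p = 0.0554) and without high zinc root array 2 (-1.27, adjusted p = 0.0548). Fits with the replicate number as a block leave out that control root array, whose number no title gives, and gave -1.26 (adjusted p = 0.0621), so the block's own part in the loss cannot be told apart. The median of all probe sets in the organ comparison was 0.28 in A. halleri and 0.19 in A. petraea, opposite in sign to the TAPX difference.

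**Figure D1:**
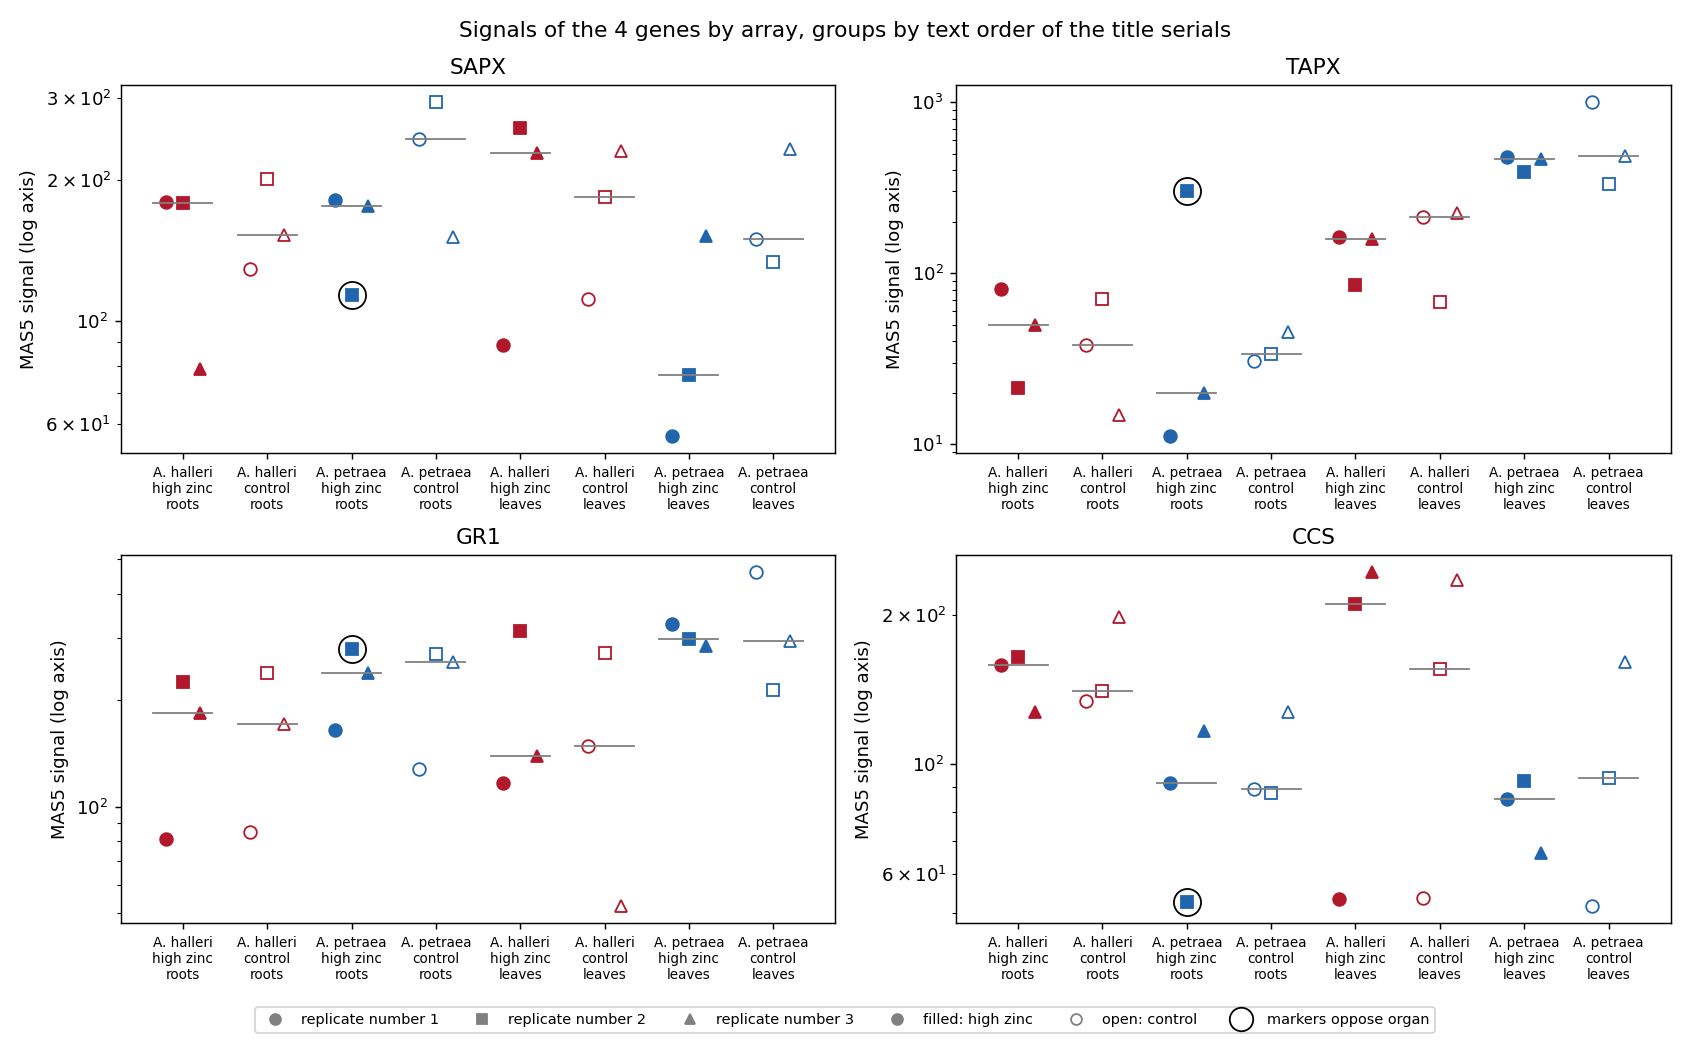
MAS5 signals of SAPX, TAPX, GR1 and CCS on a log axis for each of the 24 arrays, grouped by text order. Colours give the species, symbols the replicate number, filled symbols high zinc and grey lines the group median, and the ringed array is the one whose markers oppose its organ. TAPX lies between 331.2 and 1005.1 on all 6 A. petraea leaf arrays, above every root array.

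Between the species, TAPX differed in leaves. A. halleri leaves ranged from 67.8 to 223.8 with a median of 160.1, and A. petraea leaves from 331.2 to 1005.1 with a median of 472.8, so no array overlapped. A. halleri minus A. petraea was -1.70 ± 0.47 (limma, adjusted p = 0.0333), where 6.06% of probe sets were called and 4.4% had groups that did not overlap. The call did not hold throughout. Averaging the same-numbered high zinc and control arrays of a species and organ before the fit, so that they count once, gave an adjusted p of 0.112 in limma. A pseudocount of 1 gave -1.82 (adjusted p = 0.0794), and 8 of 12 fits that left out 1 leaf array lost the call (changes of -1.76 to -1.45 in those that lost it). The array's probes match A. thaliana sequence, and the part of sequence differences between the species in this comparison was not tested.

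In roots the species did not differ detectably in TAPX. A. halleri roots had a median of 44.1 and A. petraea roots a median of 32.2. A. halleri minus A. petraea was -0.06 (95% interval -1.04 to 0.92), and 0.50 without the opposed array. The difference between the species in the organ difference (A. halleri minus A. petraea) was 1.64 ± 0.66 and was not called (limma, adjusted p = 0.357, 0.52% of probe sets called). Without the opposed array it was 2.20 ± 0.47 and was called (adjusted p = 0.027, 0.859% of probe sets called). With same-numbered arrays also averaged it was 2.09 ± 0.49 and was not (adjusted p = 0.224, 0.0818% called). The opposed array was set apart by its leaf markers and held the highest A. petraea root value of TAPX. Leaving it out could therefore only raise this difference, so the call without it is no separate support.

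TAPX tracked the organ markers more closely than the other members did. Across the 24 arrays its log2 signal correlated with leaf minus root markers at r = 0.82, while GR1 gave 0.29, CCS -0.11 and SAPX -0.24. These are descriptions over arrays that share tissues, and no test was made. TAPX spanned signals of 11.1 to 1005.1, the lowest under the pseudocount, and its SD on the log2 scale over all arrays exceeded that of 96.2% of probe sets tested. The SDs of SAPX, GR1 and CCS lay at the 47.3, 67.3 and 57.8 percentiles.

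**Figure D2:**
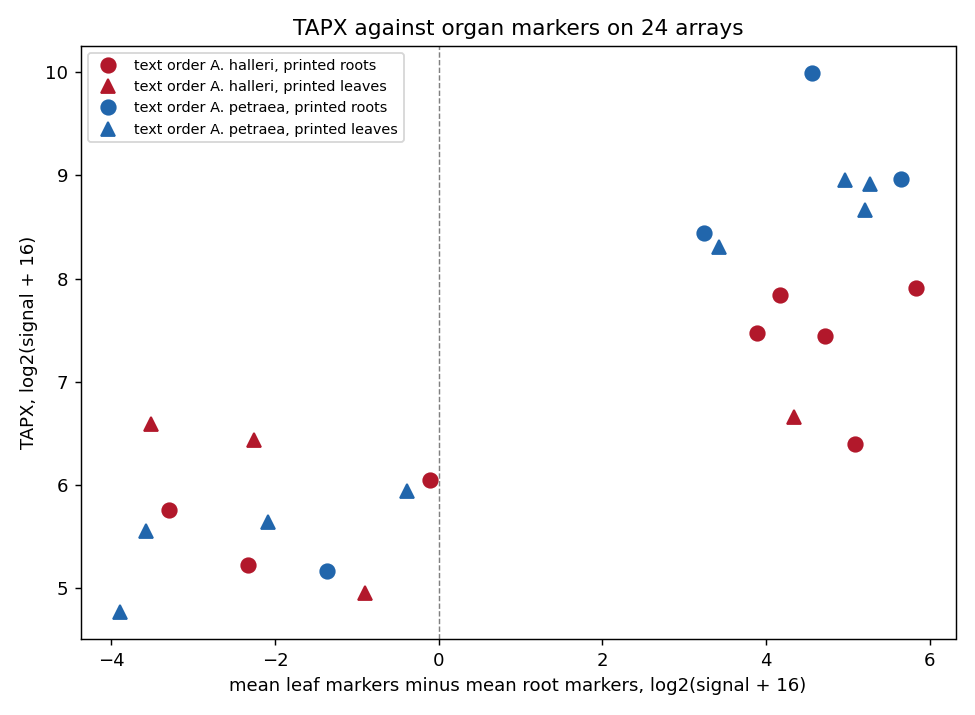
TAPX on the log2(signal + 16) scale against the mean of the leaf markers minus the mean of the root markers, for 24 arrays. Colours give the text-order species and symbols the printed organ. TAPX was 67.8 to 1005.1 in signal on the 13 arrays right of 0 and 11.1 to 80.3 on the 11 left of it, and circles and triangles stand on both sides.

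SAPX, which removes peroxide in the stroma, did not separate the organs or species in text order. In A. petraea leaves it was 56.5, 76.4 and 151.8 under high zinc and 149.3, 133.7 and 233.4 in controls. At each of the 3 replicate numbers the high zinc array was the lower, at 0.378, 0.571 and 0.65 times the control array, although the groups overlapped. High zinc minus control was -0.82 ± 0.41 (95% interval -1.67 to 0.03) and was not called (limma, adjusted p = 0.999). Numbers nested in species and organ as blocks gave the same change with a smaller SE of 0.27 (95% interval -1.40 to -0.24), an unadjusted p of 0.00897 and an adjusted p of 0.433 in limma, so it was not called there either. The nested fit was chosen after seeing the data, and the share of all probe sets with a low unadjusted p in it is not given.

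In the other groups SAPX was lower under high zinc in most same-numbered pairs but not in all. A. petraea roots had 180.7, 113.4 and 175.7 under high zinc and 244.9, 294.0 and 150.9 in controls. The value of 113.4 came from the opposed array. A. halleri roots had 179.6, 178.5 and 78.7 under high zinc and 129.1, 201.1 and 152.7 in controls. A. halleri leaves had 88.7, 258.5 and 228.6 under high zinc and 111.3, 184.1 and 230.5 in controls, with arrays of number 1 the lowest of both groups. Over all species and organs the high zinc array was the lower in 9 of 12 same-numbered pairs. The lower ones include pair 3 of A. halleri roots, where no title gives the control array's number. They also include pair 2 of A. petraea roots, which holds the opposed array, and the nearly equal pair 3 of A. halleri leaves (228.6 and 230.5). How common such a count is over all probe sets was not tested. By mean log2 signal the order was A. petraea roots (7.65 ± 0.45), A. halleri leaves (7.55 ± 0.57), A. halleri roots (7.35 ± 0.44) and A. petraea leaves (7.11 ± 0.65; SD, n = 6 each). Each neighbouring pair differed by less than either SD. Roots minus leaves in A. petraea was 0.54 ± 0.29 (limma, adjusted p = 0.185), and 0.64 ± 0.31 without the opposed array (adjusted p = 0.133).

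GR1, which recycles glutathione in the cytosol, was highest in A. petraea leaves. High zinc leaves of A. petraea had 327.1, 298.4 and 283.8, and control leaves 461.5, 213.9 and 293.1. A. halleri leaves had 116.5, 314.1 and 139.3 under high zinc and 148.1, 271.2 and 52.2 in controls. Most A. halleri leaf arrays lay below the A. petraea range, but both arrays of number 2 lay inside it. A. halleri minus A. petraea in leaves was -0.94 ± 0.35 (95% interval -1.67 to -0.22) and was not called (limma, adjusted p = 0.123). With limma's array weights it was called at -1.03 (adjusted p = 0.0374). Those weights set A. halleri high zinc leaf array 3 (139.3) at 5.46 and array 2 of that group (314.1) at 0.59. The share of all probe sets called with array weights is not given.

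In roots, GR1 signals went with the replicate number more than with zinc. A. halleri roots had 80.8, 224.4 and 183.9 under high zinc and 84.6, 238.3 and 171.4 in controls. A. petraea roots had 164.1, 279.4 and 239.1 under high zinc and 127.3, 269.8 and 256.1 in controls. In each of these 4 groups number 1 was the lowest and number 2 the highest. The value of 279.4, number 2 of A. petraea high zinc roots, came from the opposed array. The root values that follow include that array and pair 3 of A. halleri roots, where no title gives the control array's number. High zinc and control root arrays of the same number differed by a median of 0.09 on the log2 scale over 6 pairs, against 0.75 between different numbers over 12 pairs. In leaves the medians were 0.38 and 0.64. The labels do not say what a replicate number marks, and how plants, growth and hybridisation contribute to it cannot be told apart. By mean log2 signal GR1 ran from A. petraea leaves (8.33 ± 0.34) over A. petraea roots (7.85 ± 0.42) to A. halleri roots (7.39 ± 0.62) and A. halleri leaves (7.39 ± 0.82; SD, n = 6 each), and neither the last pair nor the species difference in roots (-0.46 ± 0.35, limma adjusted p = 0.491) was beyond its spread.

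**Figure D3:**
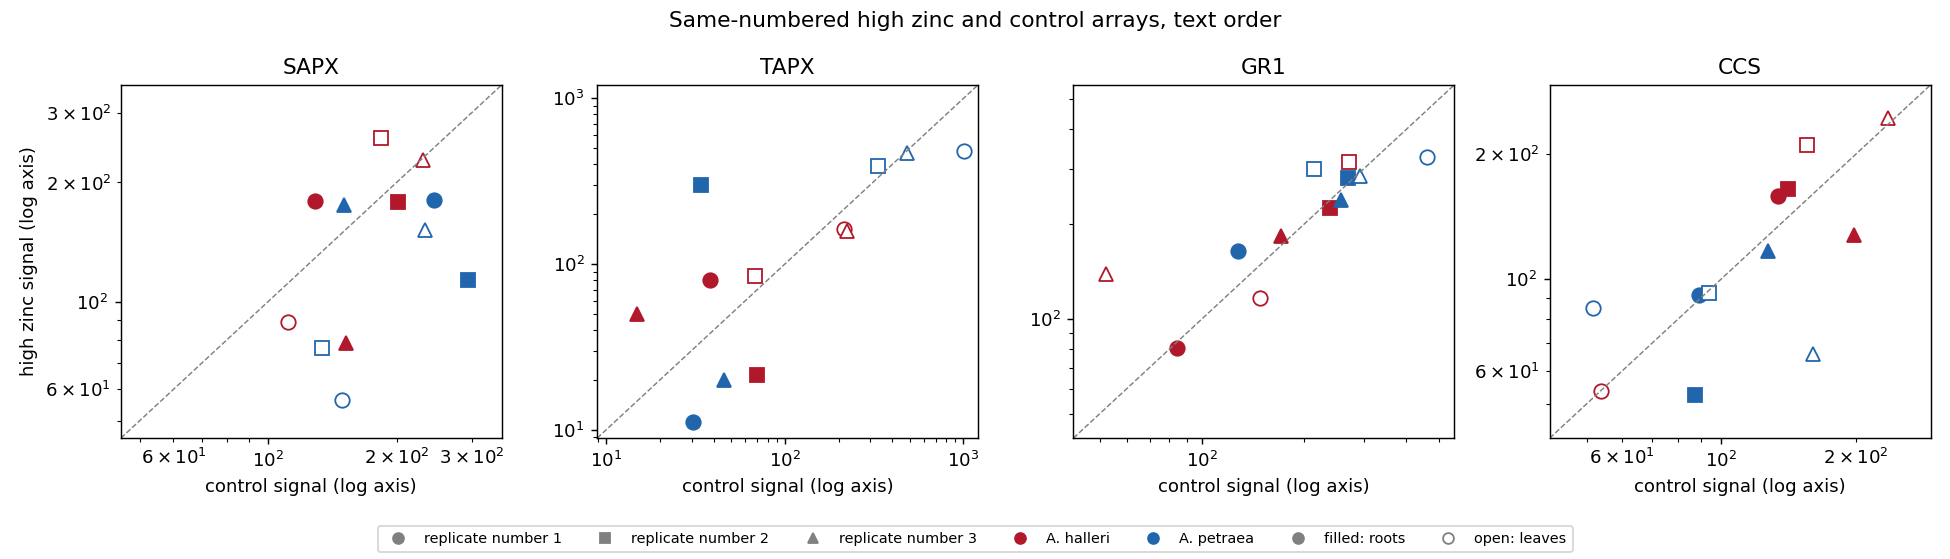
Signal of the high zinc array against the control array of the same species, organ and replicate number in text order, on log axes, for SAPX, TAPX, GR1 and CCS. The dashed line marks equal signals, colours give the species and filled symbols roots. GR1 pairs differ by a median of 0.15 on the log2 scale and by 1.19 at most, in A. halleri leaves. Of the 12 SAPX pairs, 9 lie below the line. Pair 3 of A. halleri roots rests on a control number that no title gives.

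CCS, the copper carrier for superoxide dismutase, was higher in A. halleri than in A. petraea on average but was not called. A. halleri roots had 158.4, 164.9 and 127.4 under high zinc and 134.0, 140.7 and 198.0 in controls, against 91.5, 52.6 and 116.9 under high zinc and 89.0, 87.4 and 127.5 in controls of A. petraea. The species overlapped by little, since the lowest A. halleri root array, at 127.4, lay just under the highest A. petraea one, at 127.5. The difference in roots was 0.65 ± 0.33 (95% interval -0.03 to 1.33, limma adjusted p = 0.276), and 0.52 without the opposed array, which held the lowest root value of 52.6, in a comparison where 4.69% of probe sets were called.

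In leaves CCS varied more. A. halleri leaves had 53.5, 210.5 and 245.0 under high zinc and 53.7, 155.8 and 235.7 in controls, so that number 1 was low and number 3 high at both zinc levels. A. petraea leaves had 85.2, 92.5 and 66.0 under high zinc and 51.6, 93.8 and 160.7 in controls. The difference in leaves was 0.57 ± 0.33 (limma, adjusted p = 0.375), and 0.95 with array weights, where it was called (adjusted p = 0.013). Those weights set A. halleri high zinc leaf array 3 (245.0) at 5.46 and the low number 1 arrays (53.5 and 53.7) at 0.39 and 0.44. The share of all probe sets called with array weights is not given. Organs differed by 0.15 ± 0.33 in A. halleri and 0.06 ± 0.33 in A. petraea, and neither was called. The order by mean log2 signal was A. halleri roots (7.40 ± 0.21), A. halleri leaves (7.25 ± 0.90), A. petraea roots (6.75 ± 0.37) and A. petraea leaves (6.68 ± 0.47; SD, n = 6 each). The organs of a species differed by less than either SD.

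No member was called for a zinc response in text order. The counts and shares here come from the fit of group means, which leaves replicate numbers out. Of the 16 tests, 4 genes in 2 organs of 2 species, limma called 0, and 0 had an unadjusted p under 0.05. With numbers nested as blocks, the 95% interval of SAPX in A. petraea leaves excluded 0 (-1.40 to -0.24), and no member was called. The share of all probe sets with such an interval in the nested fit is not given. In the fit of group means, 1.88% of all probe sets had an unadjusted p under 0.05 in A. halleri roots. The share was 0.585% in A. halleri leaves, 2.54% in A. petraea roots and 2.72% in A. petraea leaves. The share of all probe sets called was 0% in A. halleri roots, A. halleri leaves and A. petraea roots and 0.00585% in A. petraea leaves, so few probe sets of any kind were called. The 95% intervals still allowed sizeable changes. Over the 4 zinc comparisons they reached from -1.67 to 1.75 for TAPX, from -1.67 to 0.90 for SAPX, from -1.05 to 1.38 for GR1 and from -1.19 to 1.12 for CCS. Within replicate numbers, in fits without A. halleri control root array 3, they reached from -1.87 to 1.74 for TAPX, from -1.40 to 0.84 for SAPX, from -0.77 to 0.93 for GR1 and from -0.81 to 0.93 for CCS. The widest spread was that of TAPX in A. petraea roots, where high zinc minus control was 0.37 with the opposed array and -0.75 without it. In the fit of group means the species did not differ detectably in these responses either, with 0 of 8 tests called by limma and 0 at an unadjusted p under 0.05. Of all probe sets, 0% were called in either organ, and 2.13% in roots and 1.53% in leaves had an unadjusted p under 0.05.

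**Figure D4:**
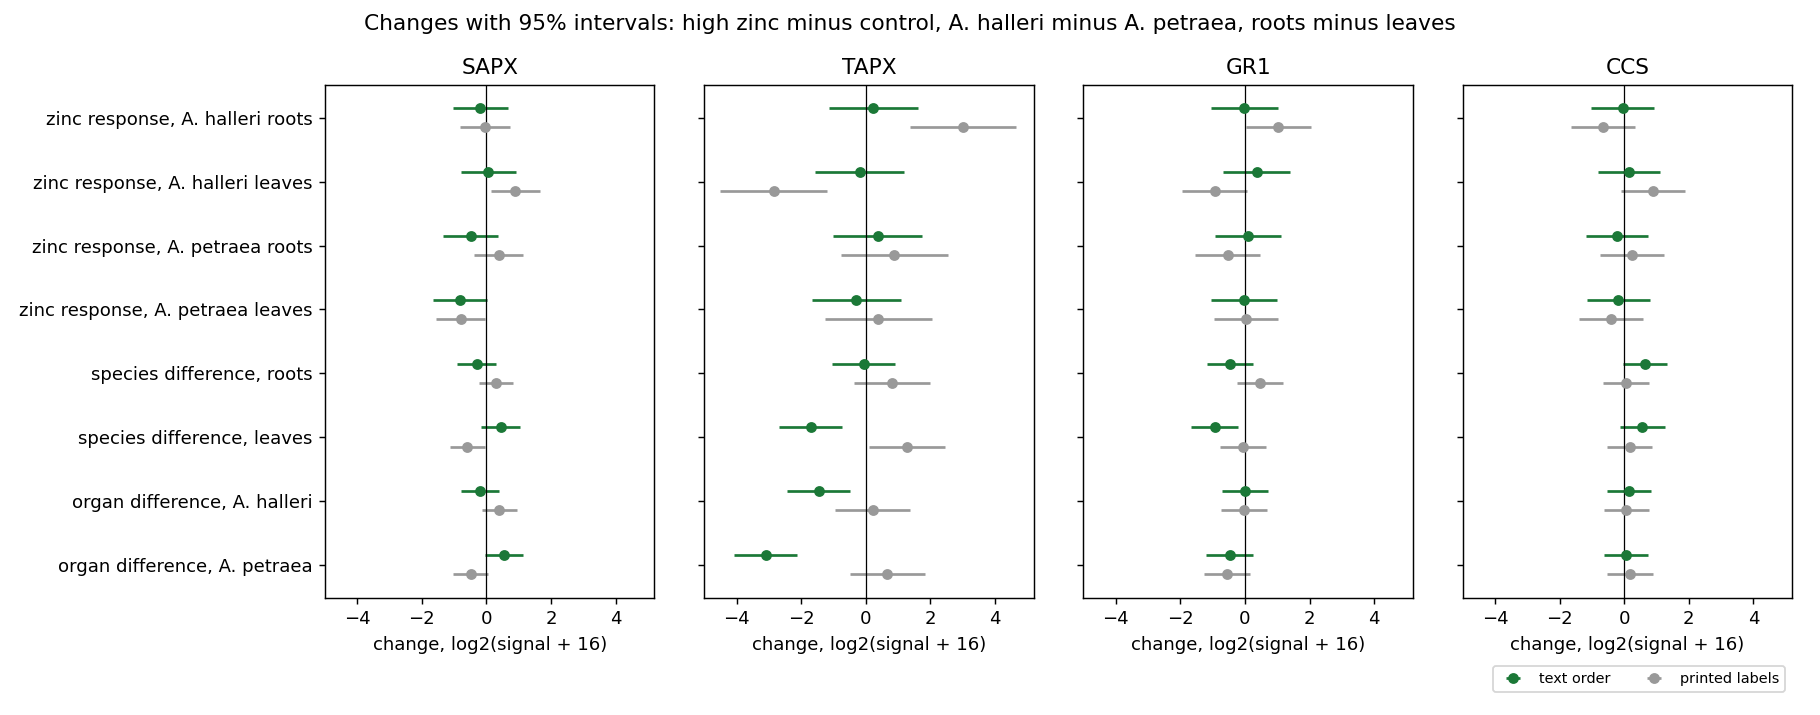
Change of each gene with its 95% interval in 8 comparisons, in text order (green) and by the printed labels (grey), on the log2(signal + 16) scale. In text order the intervals of TAPX in the organ differences and of TAPX and GR1 in the species difference in leaves exclude 0. Those of all 4 zinc responses, from the fit of group means, include 0 for every gene.

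The 2 groupings gave different accounts of TAPX. By the printed labels, A. halleri high zinc leaves had 70.2, 14.8 and 80.3 and control leaves 479.3, 388.7 and 466.2. The groups did not overlap, and high zinc minus control was -2.85 ± 0.79 (limma, adjusted p = 0.0251). This was 1 of 16 printed zinc tests and the only one called, in a comparison with 17.2% of probe sets called and 47.1% without overlap. Leaf markers lay above root markers on 3 of 3 printed control leaf arrays and on 0 of 3 printed high zinc leaf arrays. In text order the same 3 control arrays are A. petraea high zinc leaves, and the 3 high zinc arrays are A. halleri roots. The call was lost in 5 of 6 fits that left out 1 array of the comparison.

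Printed A. halleri roots showed a difference of the opposite sign. High zinc roots had 1005.1, 331.2 and 482.6 and control roots 38.1, 158.3 and 19.8. High zinc minus control was 3.01 ± 0.79 and was not called (limma, adjusted p = 0.298), with 0.0585% of probe sets called and 13.5% without overlap. The leaf markers were the higher on all 3 of these high zinc root arrays and on 1 of 3 control root arrays. In printed A. petraea the changes were 0.89 ± 0.79 in roots and 0.39 ± 0.79 in leaves, and 0% of probe sets were called in either organ.

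The other members did not overlap between printed A. halleri high zinc and control leaves. SAPX had 201.1, 152.7 and 179.6 under high zinc and 56.5, 76.4 and 151.8 in controls. GR1 had 238.3, 171.4 and 80.8 under high zinc and 327.1, 298.4 and 283.8 in controls. CCS had 140.7, 198.0 and 158.4 under high zinc and 85.2, 92.5 and 66.0 in controls. All 4 members were thus without overlap where 47.1% of probe sets were, and the changes of 0.89, -0.94 and 0.90 for SAPX, GR1 and CCS were not called (limma, adjusted p = 0.088, 0.167 and 0.178). In that grouping TAPX did not differ detectably between organs, at 0.21 ± 0.56 in A. halleri and 0.67 ± 0.56 in A. petraea. In these organ comparisons 0% of probe sets were called. Its species difference was 0.81 ± 0.56 in roots and 1.27 ± 0.56 in leaves, where text order gave -1.70 in leaves and a root value near 0 that turned sign between alternatives, and neither was called (limma, adjusted p = 0.999 and 0.901; 0% of probe sets called). SAPX was the only member whose printed A. petraea groups did not overlap with zinc, in leaves, where 8.6% of probe sets did not. Between the species, 0 of 8 printed zinc responses differed by limma, against 0% of probe sets called in roots and 0.351% in leaves, although 3 of the 8 had an unadjusted p under 0.05, as did 2.83% of probe sets in roots and 16.6% in leaves.

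The wider antioxidant and copper list held 52 genes, of which the annotation named 10, the 4 members among them. The other 6 were GR2, the organellar glutathione reductase, MDAR2, a monodehydroascorbate reductase, 2CPA and PRXIIE, plastid peroxiredoxins, and VTC4 and GLDH, enzymes of ascorbate synthesis. In text order 0 of these 6 were called in any zinc response, and the share of all probe sets called there is given above.

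Organ differences were called for 5 of the 6 in A. halleri, where 38% of all probe sets were called, and for 3 of 6 in A. petraea, where 21.5% were. In A. halleri 4 of 6 were lower in roots than in leaves: 2CPA at -1.99 ± 0.39, PRXIIE at -1.36 ± 0.27, VTC4 at -1.30 ± 0.21 and GR2 at -0.79 ± 0.29. GLDH was higher in roots by 1.07 ± 0.26, and MDAR2 did not pass. In A. petraea 3 of 6 were lower in roots, 2CPA at -2.48 ± 0.39, PRXIIE at -1.17 ± 0.27 and VTC4 at -0.73 ± 0.21, and 0 were higher. These A. petraea values include the opposed array, and values without it are not given. The median of the 6 was -1.04 in A. halleri and -0.77 in A. petraea, against -0.10 and -0.21 for the 4 members. With same-numbered arrays averaged, GR2 in A. halleri and PRXIIE in A. petraea were no longer called.

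**Figure D5:**
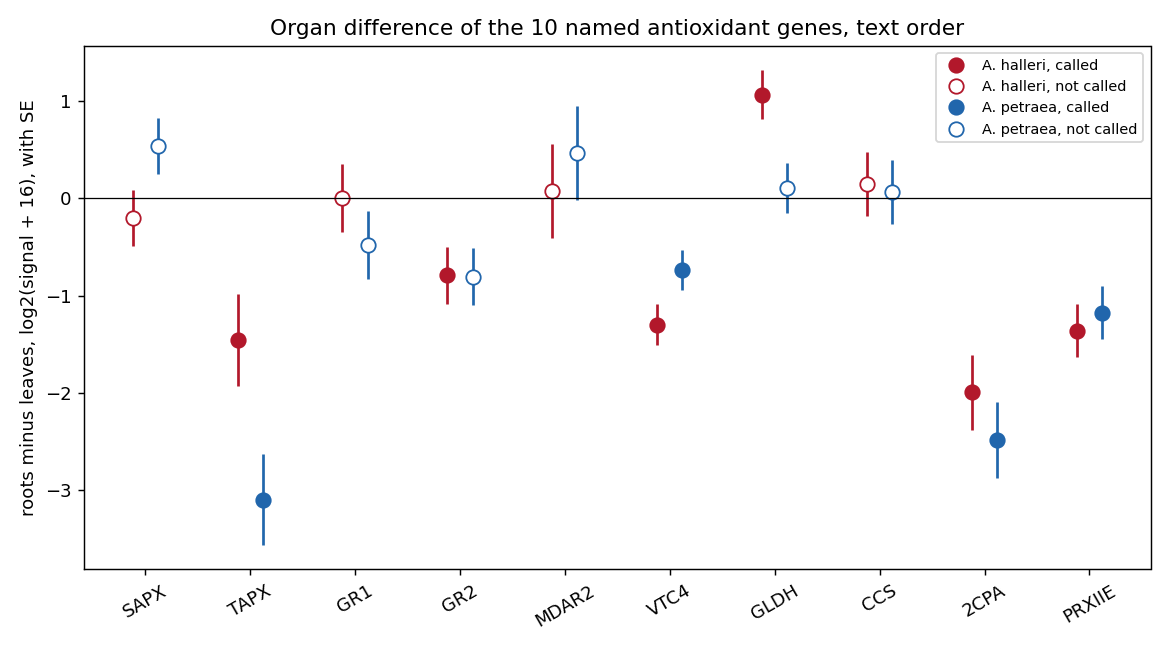
Roots minus leaves for the 10 named antioxidant genes in text order on the log2(signal + 16) scale, with SE, for A. halleri (red) and A. petraea (blue). Filled symbols were called by limma. All arrays are included, the opposed one among them. TAPX and 2CPA lie lowest in A. petraea, at -3.10 and -2.48, while SAPX, GR1 and CCS were not called in either species.

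Between the species, 1 of the 6 was called in each organ, where 4.69% of probe sets in roots and 6.06% in leaves were, and both were lower in A. halleri. VTC4 differed in roots at -0.97 ± 0.21 (limma, adjusted p = 0.00911) and 2CPA in leaves by -1.32 ± 0.39 (adjusted p = 0.0464). With same-numbered arrays averaged neither was called (adjusted p = 0.0641 and 0.211). By the printed labels, 2CPA, PRXIIE and VTC4 were lower in A. halleri high zinc than control leaves, with changes of -3.23, -1.87 and -1.69, in the same comparison that called TAPX.

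The named genes most like each member were ranked by Pearson's r over the 24 arrays among 9559 other named genes. TAPX stood closest to TRXF2, a plastid thioredoxin, AT5G11420, AT1G29670, PME61 and AT3G11630, which is 2CPA, with r of 0.92 to 0.93. Within the 13 arrays with leaf markers the 5 values were 0.86 to 0.91, and within the 11 others they were -0.25 to 0.13. The likeness was thus not seen among the 11. The lowest r belonged to AT1G71780, AT3G54390 and AT3G12040, at -0.87 for the first of them.

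The other members had weaker neighbours. CCS stood closest to AT3G57890 (r = 0.83), NRPA1, AT3G46450, AT1G63980 and AT4G03260, and was most unlike TET4 (r = -0.83), AT3G57785 and AT5G46230. SAPX stood closest to AT3G58830 (r = 0.75), AT1G27200, UGT76B1, AT2G25280 and AT3G55410, and was most unlike AT1G74410 (r = -0.74), AT5G15190 and CYN. GR1 stood closest to AT3G19010 (r = 0.75), STIPL1, RING1, AT2G43280 and AT4G34180, and was most unlike AT2G25150 (r = -0.79), AT5G11020 and AT3G56130. Among the members the highest r was 0.49, between SAPX and CCS, and 0.59 after each text-order group mean was removed. These values describe arrays that share species, organ and number.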

How the data were processed

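The deposited table holds 1 linear intensity per probe set and array, made by the authors with MAS5 per the submitters' processing notes, in a version not given in the sources used here. Arrays shared a trimmed mean near 100.0 (lowest and highest 2% left out). Each probe set was taken as log2(signal + 16), which understates the change of dim genes, and those with a mean in the lowest 25% were left out, so 17107 of 22810 were tested. limma 3.58.1 in R 4.3.3 fitted 8 group means to all 24 arrays (16 residual degrees of freedom), with trend and robust eBayes, two-sided tests and Benjamini-Hochberg adjustment. There were 10 comparisons for each of the 2 groupings, and the difference between species in organ difference was added later. The script was tested on simulated data. The number of arrays limits precision.

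The 4 genes, the text order and the gene lists were chosen with earlier results of these data known. Named genes were the 4 members, list genes that were called, and for each member the 5 most and 3 least correlated named genes. Gene names came from the platform annotation, which can be old. 1 array printed as A. halleri control roots repeats replicate number 1 in its title and is called replicate 3. Array 1 of that group has a stage label of 1.1, against 10 to 16 rosette leaves on the other 23, and was kept.

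Replicate numbers were checked for pairing by the correlation, across probe sets, of deviations from the group means of same-numbered high zinc and control arrays. In text order every pair was over 0.1 in A. halleri roots (0.20 to 0.61), A. halleri leaves (0.65 to 0.81) and A. petraea leaves (0.27 to 0.57). In A. petraea roots they ran from -0.05 to 0.51. By the printed labels every pair was over 0.1 only in A. petraea roots. The alternatives were other pseudocounts, no filter, quantile normalization, array weights, fewer groups in the fit, other eBayes settings, replicate blocks (without the array whose number its title does not give) and leaving out arrays. Chosen after seeing the data were leaving out the opposed array, nested blocks and averaging same-numbered arrays.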

Additional observations from a re-analysis of the deposited data

Results flagged for a closer look

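In the printed grouping, SAPX had changes of opposite sign with zinc in the leaves of the species, and neither was called. High zinc minus control was 0.89 ± 0.37 in A. halleri leaves and -0.80 ± 0.37 in A. petraea leaves (limma, adjusted p = 0.088 and 1). The arrays did not overlap in either, as for 47.1% of probe sets in A. halleri leaves and 8.6% in A. petraea leaves. A. petraea high zinc leaves had 150.9, 180.7 and 113.4, and control leaves 258.5, 244.9 and 294.0. The A. halleri response minus the A. petraea response was 1.69 ± 0.52 and was not called (limma, adjusted p = 0.14), and with array weights it was called at 1.62 (adjusted p = 0.0233). The share of all probe sets called with array weights is not given. In text order the same difference was 0.87 ± 0.58 (adjusted p = 1). Of the 12 printed leaf arrays, 7 had root markers above leaf markers, and the part of this in the difference was not tested.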

How the results depend on the processing

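The number of members called moved in 4 of the 20 comparisons, among them 3 of the 4 that called TAPX: in 8 of 15 alternatives for the printed zinc response of A. halleri leaves, 11 of 22 for the text-order species difference in leaves, 3 of 22 for the text-order organ difference in A. halleri and 1 of 20 for the printed difference between species in leaves. By the printed labels, the count in the zinc response of A. halleri leaves was 1, and it was 3 with array weights, 2 with only the comparison's own groups, 0 with a nested replicate block (TAPX -2.85, adjusted p = 0.0532) and 0 to 1 without 1 array. The difference between species in zinc response in printed leaves had 2 members with array weights (TAPX -3.26, SAPX 1.62) and otherwise 0. In text order, the species difference in leaves had 0 members with a pseudocount of 1, 0 with same-numbered arrays averaged, 3 with array weights and 0 to 1 without 1 array. The shares of all probe sets called with array weights are not given, so these counts stand without them. The organ difference in A. halleri had 0 members with a replicate block and 0 to 1 without 1 array. All block fits also leave out 1 array, which in text order is A. halleri control root array 3. No gene had several probe sets, so the planned change of probe set gave no value.

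Small changes near 0 turned sign. By the printed labels these were SAPX with zinc in A. halleri roots (0.12 with array weights, -0.27 to 0.14 without 1 array), TAPX between organs in A. halleri (-0.029 with array weights, -0.12 to 0.45 without 1 array) and, without 1 array, with zinc CCS in A. petraea roots (-0.16 to 0.77), and TAPX (-0.60 to 1.18) and GR1 (-0.33 to 0.27) in A. petraea leaves.

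In text order array weights gave -0.51 for TAPX and 0.10 for CCS with zinc in A. halleri roots, 0.14 for TAPX in A. halleri leaves, -0.15 for GR1 in A. petraea roots, 0.12 for TAPX between species in roots, and -0.30 in A. halleri and -0.019 in A. petraea for CCS between organs. The replicate block without that array gave -0.15 for TAPX and 0.13 for GR1 with zinc in A. halleri roots, 0.13 for TAPX between species in roots and -0.066 for GR1 between organs in A. halleri. The nested replicate block without it gave 0.14 for SAPX, -0.19 for TAPX and 0.21 for CCS in A. halleri roots, which are the means of pairs 1 and 2 alone. Leaving out that array without a block gave -0.14 for TAPX, 0.06 for GR1 and 0.11 for CCS there, and 0.13 for TAPX between species in roots. A pseudocount of 1 gave 0.011 for TAPX between species in roots, and a pseudocount of 64 gave -0.011 for GR1 between organs in A. halleri. Quantile normalization gave -0.035 for GR1 between organs in A. halleri and -0.057 for CCS in A. petraea, and moved the median organ difference of all probe sets in A. halleri to 0.13. Without the opposed array, the zinc response in A. petraea roots was -0.75 for TAPX, -0.060 for GR1 and 0.044 for CCS, and the species difference of TAPX in roots was 0.50.

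Leaving out 1 array in text order gave, with zinc in A. halleri roots, -0.36 to 0.16 for SAPX, -0.14 to 0.61 for TAPX, -0.39 to 0.38 for GR1 and -0.15 to 0.11 for CCS. In A. halleri leaves it gave -0.21 to 0.49 for SAPX, -0.68 to 0.082 for TAPX, -0.20 to 0.84 for GR1 and -0.38 to 0.75 for CCS. In A. petraea roots it gave -0.75 to 1.03 for TAPX, -0.23 to 0.30 for GR1 and -0.43 to 0.044 for CCS, and in A. petraea leaves -0.64 to 0.14 for TAPX, -0.27 to 0.26 for GR1 and -0.53 to 0.16 for CCS. The organ difference ran from -0.27 to 0.25 for GR1 and from -0.15 to 0.35 for CCS in A. halleri, and from -0.11 to 0.23 for CCS in A. petraea. The species difference of TAPX in roots ran from -0.39 to 0.50. The cause was not tested where a sign turned. The organ difference of TAPX in A. petraea was called under every alternative run.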
